A study of Canis lupus familiaris with 23 samples.

Results

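The genes described here build or regulate the contacts that hold cells to each other and to the extracellular matrix: integrins, laminins, cadherins and protocadherins, desmosomal proteins, claudins and other tight junction proteins, keratins and vimentin. They were chosen by gene symbol from the annotation of a canine expression array, with KRT18, LAMA4 and CDH6 left out. Of 6540 genes with 1 symbol on the array, 43 were members, measured by 63 probe sets. The probe set with the highest mean over all samples stood for its gene. By symbol the 43 were 8 integrin alpha and 8 integrin beta chains, 1 integrin-binding protein, 5 laminin chains, 4 cadherins, 2 protocadherins, 4 desmosomal proteins, 4 claudins, 2 claudin domain proteins, 3 other tight junction proteins, 1 keratin and vimentin. Members are named by symbol throughout.

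Tumors were primary osteosarcomas of 15 pet dogs, removed at surgery before any chemotherapy. Alongside them were 2 lines of cultured canine osteosarcoma cells and 6 pieces of healthy organ from colony dogs, 2 of them kidney, 2 liver and 2 lymph node. No age, breed, sex or treatment of the individual dogs was used, and the labels do not say which of the methods' named cell lines each cell line sample was. Normal bone was not among the samples analysed here, so each difference from normal is a difference from these 3 organs. Each sample was hybridized to its own Affymetrix Canine Genome array, and the values are RMA log2 expression values, on which a step of 1 is a doubling.

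As background, integrins are paired alpha and beta chains that bind matrix proteins outside the cell and the actin skeleton inside it. Laminins are trimers of an alpha, a beta and a gamma chain and form the framework of basement membranes. Cadherins join cells at adherens junctions, desmogleins and desmocollins join them at desmosomes, and claudins with occludin seal tight junctions. Epithelial cells carry keratin filaments, whereas cells of mesenchymal origin, such as the osteoblast lineage from which osteosarcoma arises, carry vimentin filaments.

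The tissue labels were checked against marker lists. The mean of 11 hepatocyte markers was 10.72 and 11.18 in the 2 livers and at most 5.79 elsewhere. The mean of 8 kidney tubule markers was 7.84 and 8.29 in the kidneys and at most 6.41 elsewhere. The mean of 5 lymphocyte markers was 7.40 and 8.57 in the nodes and at most 6.21 elsewhere. The mean of 5 fibroblast markers ran from 8.40 to 11.47 in tumors and reached 7.02 in normal samples, and that of 8 osteoblast markers ran from 7.03 to 9.11 in tumors and reached 6.85 in normal samples. Cell lines were at 8.34 and 8.19 in fibroblast markers. In osteoblast markers they were at 6.78 and 6.17, within the range of the normal samples. Each organ thus carried its own markers. Arrays differed in how well they captured the 5′ ends of transcripts. The 5′ index, the mean difference between 3′ and 5′ control probe sets for actin and Gapdh, was 3.15 to 6.45 in 7 tumors and in replicate 1 of each organ (low 5′ signal), and -0.32 to 0.85 in 8 tumors, both cell lines and replicate 2 of each organ (full 5′ signal). In bulk tissue, fewer cells of a type and less RNA per cell cannot be told apart.

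**Figure D1:**
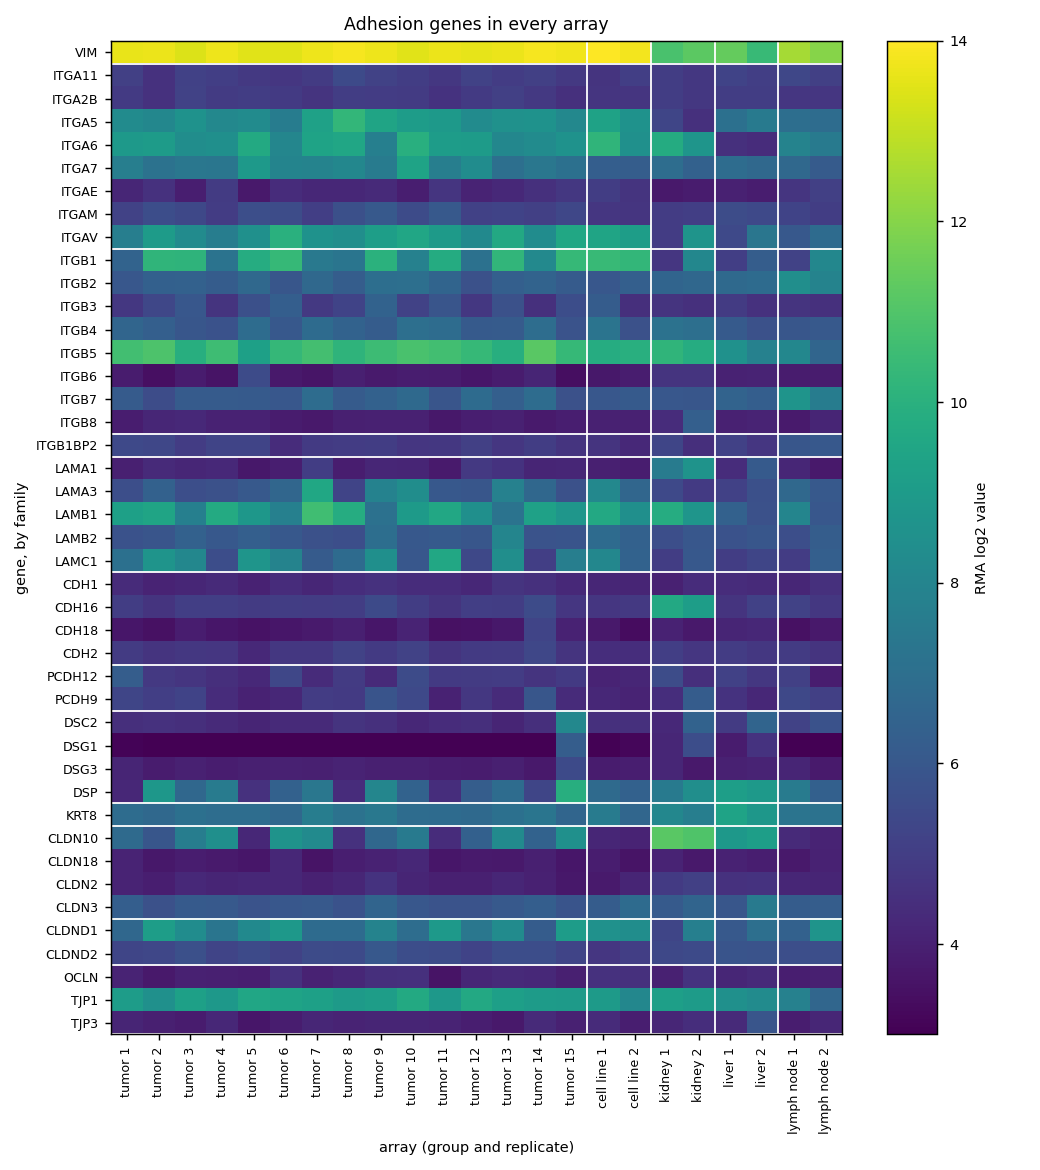
RMA log2 values of the 43 members (rows, by family) in the 23 arrays (columns, by group), with white lines between families and groups. Probe sets differ in how they respond, so colours compare arrays within a row and not genes with each other. Vimentin is brightest in all tumors and cell lines, and DSC2, DSG1 and DSG3 stand out in tumor 15.

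Against the 6 normal samples as 1 group, vimentin and 4 integrin chains (ITGA5, ITGAV, ITGB5 and ITGA7) were higher in tumors and KRT8 was lower (limma, adjusted p under 0.01 over all probe sets). The 5 higher members were 11.6% of the 43, where 3.02% of the 23836 probe sets tested were higher. The 1 lower member was 2.33% of the 43, beside 2.93% of all probe sets. The median difference over the 43 members was -0.02, the same as the median of -0.02 over all probe sets. At the median the list thus sat where all probe sets sat. In 3 members, VIM, ITGA5 and ITGA7, every tumor lay above every normal sample, which was 6.98% of the members and 0.982% of all probe sets. In 0 members did every tumor lie below every normal sample, as did 0.445% of all probe sets. Comparisons with single organs, below, use the same 15 tumors and are not independent of each other or of this one.

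Vimentin (probe set 1583372_x_at), the intermediate filament of mesenchymal cells, had the smallest spread across tumors of the 43 members. Tumor values ran from 13.44 to 13.87 with a median of 13.69 (SD 0.12, n = 15). The highest value of any probe set was 14.2, so this small spread was read near the top of the scale. The cell lines were at 13.97 and 13.80, the kidneys at 10.84 and 11.24, the livers at 11.41 and 10.42 and the nodes at 12.50 and 11.996. Tumors and cell lines overlapped each other and lay clear of all 6 normal samples, among which the nodes were highest. VIM was higher in tumors by 2.26 (SE 0.19, adjusted p = 9.03e-08), a 4.79-fold difference. By organ, the difference was 2.62 from kidney (SE 0.17), 2.75 from liver (SE 0.17) and 1.41 from node (SE 0.17, adjusted p = 1.04e-05). These 4 calls were kept in all alternatives run. A further 5 probe sets are annotated to both VIM and a second locus and were not used.

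Integrin alpha chains came next. ITGA5 (probe set 1588588_at) pairs with ITGB1 as the classical fibronectin receptor. Its values in tumors ran from 7.60 to 10.30 (median 8.56), with cell lines at 9.33 and 8.60. Kidneys were at 5.31 and 4.54, livers at 7.07 and 7.48, and nodes at 6.98 and 6.90. All 15 tumors lay above all normal samples, by a narrow margin over liver 2. ITGA5 was 2.27 higher in tumors than in normal samples (SE 0.38, adjusted p = 0.000479) and 3.72 higher than in kidney (SE 0.44, adjusted p = 3.38e-06). The differences of 1.37 from liver and 1.71 from node (SE 0.44 each) had adjusted p of 0.0424 and 0.0191. A second ITGA5 probe set gave 0.64 against the normal samples (adjusted p = 0.335) and -0.16 against liver.

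ITGAV (probe set 1586587_at), the alpha chain of the vitronectin receptors, ranged from 7.65 to 9.99 in tumors (median 8.61). The cell lines were at 9.44 and 9.14, the kidneys at 4.97 and 8.68, the livers at 5.43 and 7.32 and the nodes at 6.05 and 6.84. Groups overlapped through kidney 2 alone, since 7 of 15 tumors were above it and all 15 were above the other 5 normal samples. In each organ, replicate 1, with low 5′ signal, had the smaller value. ITGAV was 2.23 higher in tumors (SE 0.43, adjusted p = 0.00149). Among arrays of low 5′ signal the difference was 2.88 (adjusted p = 0.00394), and among arrays of full 5′ signal it was 1.54 (adjusted p = 0.0698). With organ as a random block the call was lost.

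ITGB5 (probe set 1598715_at) is a beta chain that pairs with ITGAV. Tumors ran from 9.23 to 11.17 (median 10.55), with cell lines at 9.80 and 9.95. Kidneys were at 10.21 and 9.80, inside the range of the tumors, while livers were at 8.58 and 7.85 and nodes at 8.07 and 6.60, below every tumor. ITGB5 was thus 2.22 higher in tumors than in liver (SE 0.37, adjusted p = 0.000177) and 3.09 higher than in node (SE 0.37, adjusted p = 9.09e-06), but 0.43 from kidney (SE 0.37, adjusted p = 0.61). Over the 6 normal samples the difference was 1.91 (SE 0.37, adjusted p = 0.00165), and a second ITGB5 probe set gave 2.002 (adjusted p = 0.00201). The second probe set differed more from kidney, by 1.60 (adjusted p = 0.116). For cell lines against tumors it gave -2.38 (adjusted p = 0.0141), where the one used gave -0.56 (adjusted p = 0.337).

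ITGA7 (probe set 1584716_at), a laminin-binding chain best known from muscle, ranged from 7.01 to 9.40 in tumors (median 7.69). Normal samples lay between 6.14 and 6.95, and cell lines were at 6.28 and 6.26. Every tumor lay above every normal sample and both cell lines. The 1.16 difference from normal samples (SE 0.28) passed only just, at an adjusted p of 0.00962, and was lost in 13 of 18 alternatives. The highest values were 9.40 in tumor 10 and 8.94 in tumor 5. The mean of 9 skeletal muscle markers was 9.12 in tumor 5, 4.63 in tumor 10 and at most 5.37 in the other tumors. The part of muscle in the value of tumor 5 was not tested. Without tumor 5 the call was lost.

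ITGA6 (probe set 1590680_s_at) pairs with ITGB4 or ITGB1 as a laminin receptor. It was at 7.73 to 9.93 in tumors (median 8.89), 10.21 and 8.54 in cell lines, 9.75 and 8.75 in kidney, 7.94 and 7.51 in node and only 4.52 and 4.40 in liver. Tumors overlapped kidney and node and lay far above liver. The difference from liver was 4.35 (SE 0.47, adjusted p = 6.47e-07), about 20.4-fold, while those from kidney and node were -0.44 and 1.09 (SE 0.47 each, adjusted p = 0.709 and 0.225). Of the other ITGA6 probe sets, one gave 1.89 against liver (adjusted p = 0.0406) and one 0.27 (adjusted p = 0.691). The partner chain ITGB4, found in the hemidesmosomes of epithelia, was at 5.79 to 7.01 in tumors, 7.25 and 5.71 in cell lines, 7.14 and 7.02 in kidney and 5.74 to 6.10 in liver and node. Tumors lay below the kidneys and overlapped liver and node, and no ITGB4 difference passed the test (adjusted p from 0.256 to 0.898 over 5 comparisons).

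**Figure D2:**
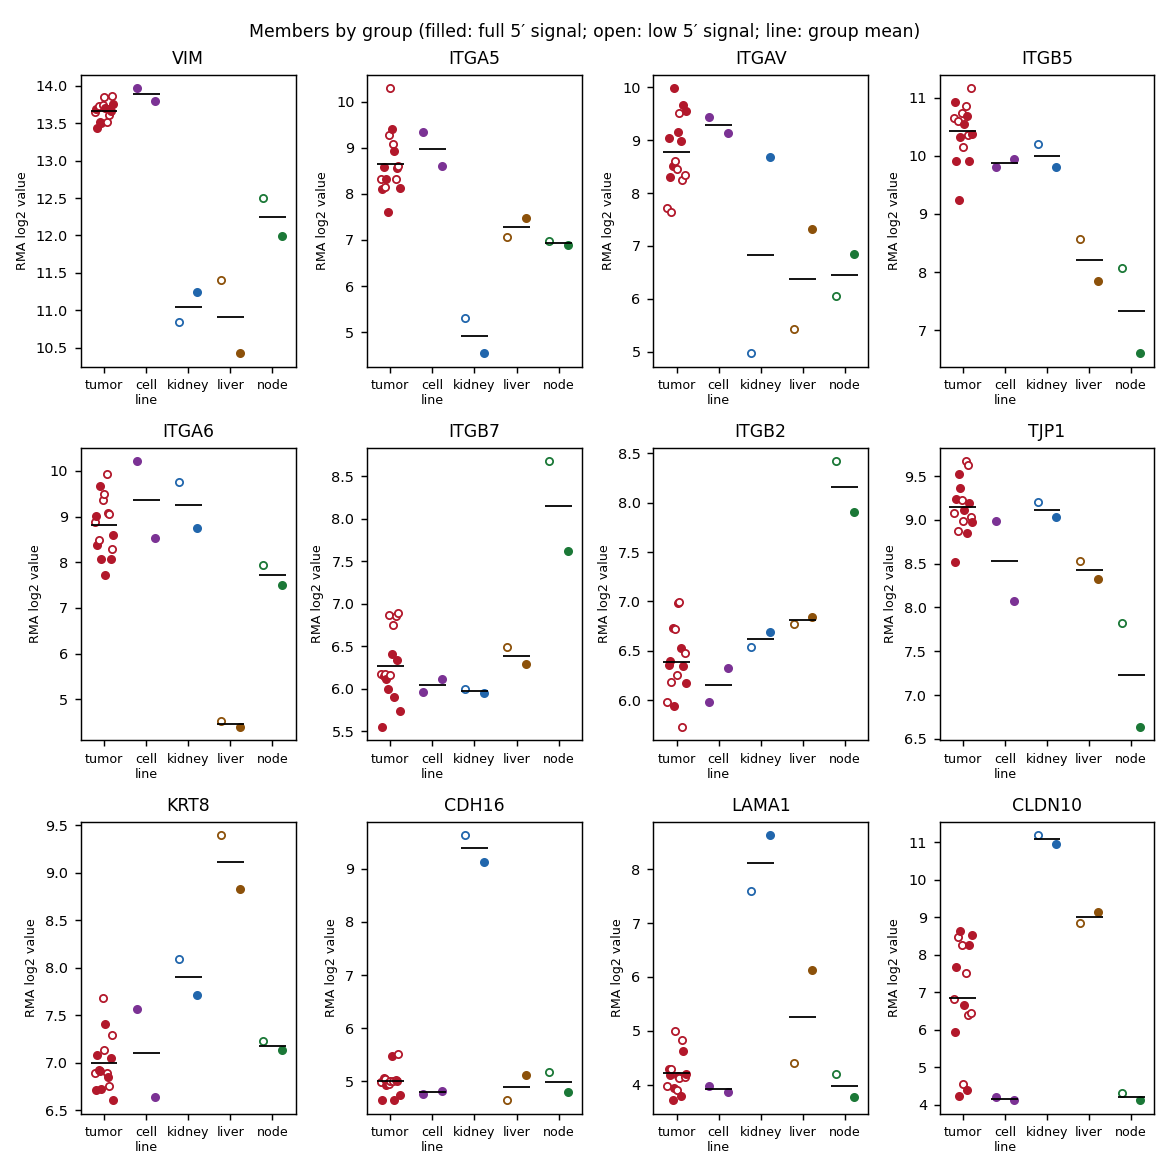
RMA log2 values of 12 members by group, with each point an array (filled for full 5′ signal, open for low 5′ signal) and the line the group mean, on a separate axis for each gene. Tumors lie above all normal samples for VIM and ITGA5, ITGA6 is low in liver alone, ITGB2 and ITGB7 are high in node, and CDH16 and LAMA1 are highest in kidney.

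ITGB2 and ITGB7 are the beta chains of leukocyte integrins. ITGB2 was at 8.42 and 7.91 in the nodes, 6.55 to 6.85 in kidney and liver, 5.98 and 6.33 in cell lines and 5.73 to 6.9998 in tumors (median 6.36). ITGB7 was at 8.68 and 7.62 in the nodes, 5.95 to 6.50 in kidney and liver, 5.97 and 6.11 in cell lines and 5.55 to 6.89 in tumors (median 6.17). For both genes the nodes lay clear of everything else and tumors overlapped kidney, liver and cell lines. Tumors were lower than node by 1.77 in ITGB2 (SE 0.25, adjusted p = 6.49e-05) and by 1.88 in ITGB7 (SE 0.30, adjusted p = 0.000237). ITGB1BP2, an integrin-binding protein of striated muscle known also as melusin, was at 5.94 and 6.04 in the nodes and 4.41 to 5.43 in tumors, and was 1.03 lower in tumors (SE 0.22, adjusted p = 0.0041). The mean of the lymphocyte markers was 5.39 to 6.21 in tumors against 7.40 and 8.57 in node, and its part in these differences was not tested. All 3 calls were lost without lymph node 1.

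Within the tumors ITGB2 moved with macrophage marker genes. Its values correlated with the mean of 12 macrophage and myeloid markers, which ran from 6.86 to 9.58 (Pearson r = 0.80, permutation p = 0.00044; Spearman rho = 0.84, permutation p = 0.00016; n = 15). Over the 3 relations computed, the adjusted values were 0.00132 and 0.00048. Within the 7 tumors of low 5′ signal r was 0.97, within the 8 of full signal it was 0.61, and without the 2 tumors farthest from the median marker level it was 0.79. For ITGAM, the alpha chain that pairs with ITGB2 on myeloid cells, r was 0.39 (permutation p = 0.16, adjusted 0.239, rho = 0.35 with permutation p = 0.196), and 0.21 without the farthest 2. ITGAM values spanned 4.94 to 6.09 in tumors, and r was 0.83 within full and 0.32 within low 5′ signal.

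The common beta chain ITGB1 (probe set 1584175_at), which pairs with most matrix-binding alpha chains, split with 5′ signal. In the 8 tumors of full 5′ signal it ran from 9.79 to 10.36 (median 10.18), and in the 7 of low signal from 6.50 to 8.18 (median 7.29). Normal replicates 2 were at 8.09 in kidney, 6.23 in liver and 8.11 in node, whereas normal replicates 1 were at 4.73, 5.06 and 5.18. Cell lines, both of full signal, were at 10.40 and 10.27. Pooled, the groups overlapped, while within each class every tumor lay above every normal sample. The pooled difference of 2.60 (SE 0.69) had an adjusted p of 0.0157 and did not pass. Within full signal it was 2.64 (adjusted p = 0.00322), within low signal 2.37 (adjusted p = 0.00385), and with the 5′ index as a covariate 1.74 (adjusted p = 0.000669), all past the threshold. A second ITGB1 probe set gave a pooled 1.63 (adjusted p = 0.196).

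Among tumors alone, 4 of 43 members differed between the 7 of low and the 8 of full 5′ signal, 9.3% of members beside 3.18% of all probe sets. They were ITGB1, lower by 2.75 (SE 0.20), LAMC1, lower by 2.44 (SE 0.32), CLDND1, lower by 1.73 (SE 0.21), and ITGB3, lower by 1.01 (SE 0.16), each in the low class. Values of these genes should be read within a class. ITGB3, which pairs with ITGAV on osteoclasts and with ITGA2B on platelets, was at 5.34 to 6.47 in tumors of full signal against 4.50 to 4.59 in normal samples of that class, a difference of 1.34 (adjusted p = 0.00724). In the low class tumors at 4.54 to 5.21 overlapped normal samples at 4.65 to 4.90, a difference of 0.12 (adjusted p = 0.716). ITGB3 was at 6.22 in cell line 1 and 4.47 in cell line 2.

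**Figure D3:**
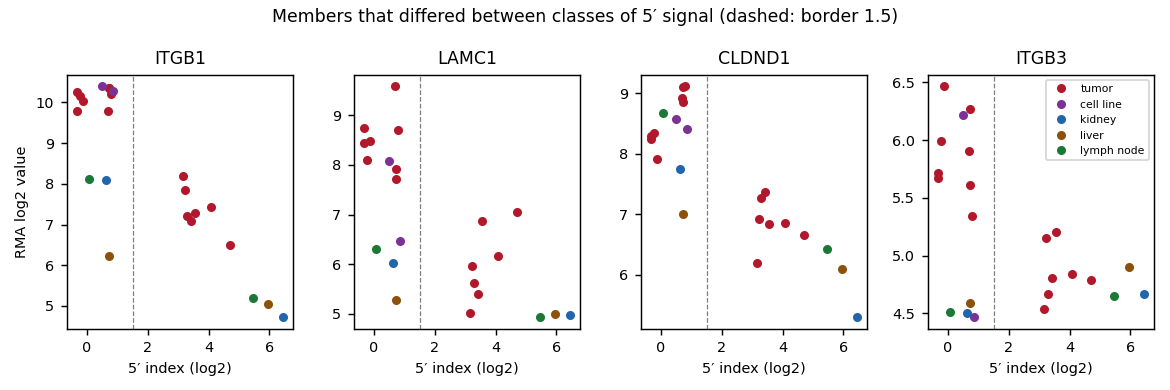
RMA log2 values of ITGB1, LAMC1, CLDND1 and ITGB3 against the 5′ index of each array (log2, higher for less 5′ signal), with arrays coloured by group and the dashed line at the class border of 1.5. Tumors right of the border have lower group means than those left of it in all 4 genes, and in ITGB1 the tumors lie above the normal samples on each side.

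The other integrin chains gave small or local values. ITGB8, which activates TGF-beta with ITGAV, was at 3.71 to 4.26 in tumors and 6.34 in kidney 2 against 4.38 in kidney 1. Tumors were lower than kidney by 1.40 (SE 0.26, adjusted p = 0.000729), a call that was lost without kidney 2. ITGB6, an epithelial partner of ITGAV, was at 5.53 in tumor 5 and 3.42 to 4.12 in the other tumors, with both kidneys at 4.66. Without tumor 5 it was called lower than in kidney. ITGA11, a collagen receptor of mesenchymal cells, was at 4.59 to 5.48 in tumors and 4.79 to 5.33 in normal samples, ITGA2B of platelets at 4.52 to 5.17 in tumors, and ITGAE of intraepithelial lymphocytes at 3.76 to 4.90. None of the 3 was called in any comparison. The other ITGA11 probe sets, both dimmer, gave 0.65 (adjusted p = 0.0266) and -0.03 (adjusted p = 0.855) against normal samples, beside -0.09 (adjusted p = 0.641) for the one used.

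Of the 5 laminin chains only LAMA1 was called, and only against kidney. LAMA1 (probe set 1590868_at), an alpha chain of embryonic and kidney tubule basement membranes, was at 7.59 and 8.64 in kidney, 4.40 and 6.13 in liver, 4.19 and 3.77 in node, 3.97 and 3.87 in cell lines and 3.71 to 4.99 in tumors (median 4.17). Kidney lay clear of all tumors, and tumors were lower than kidney by 3.91 (SE 0.34, adjusted p = 3.28e-08). A second LAMA1 probe set gave 0.02 for the same comparison (adjusted p = 0.978), so the call rests on 1 probe set.

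The widely expressed chains LAMB1 and LAMC1 share most laminin trimers. LAMB1 was at 7.12 to 10.64 in tumors (median 8.99), 9.66 and 8.47 in cell lines, 9.80 and 8.74 in kidney, 6.42 and 5.72 in liver and 8.01 and 5.97 in node. All tumors were above liver, and the 2.78 difference (SE 0.72) narrowly missed the threshold at an adjusted p of 0.0101. The other LAMB1 probe sets gave 0.22 (adjusted p = 0.601) and, for the dimmest, -0.18 (adjusted p = 0.113) against liver, and the dimmest was 0.31 higher in cell lines than in tumors (adjusted p = 0.00695). LAMC1 was at 7.72 to 9.59 in tumors of full 5′ signal and at 5.28 to 6.31 in normal samples of that class, a difference of 2.59 (adjusted p = 0.00438). In the low class it was at 5.02 to 7.06 and 4.93 to 4.99, with all 7 tumors above the 3 normal samples and a difference of 1.05 (adjusted p = 0.186). The pooled LAMC1 difference was 1.90 (SE 0.58, adjusted p = 0.0356), and a second probe set gave 1.65 (adjusted p = 0.0182).

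LAMA3 and LAMB2 varied between tumors. LAMA3, a chain of epithelial laminin-332, was highest at 9.57 in tumor 7, followed by 8.41 in tumor 10, 7.89 in tumor 9 and 7.84 in tumor 13, and the other tumors lay between 5.26 and 6.66. Cell line 1 was at 8.13 and cell line 2 at 6.64, and normal samples at 4.88 to 6.72. Tumors (SD 1.24) and normal samples overlapped, and the difference of 0.98 from normal did not pass (SE 0.52, adjusted p = 0.238). LAMB2, a chain of mature vessel and muscle basement membranes, was at 7.99 in tumor 13 and 6.99 in tumor 9 and at 5.63 to 6.43 in the other tumors, with normal samples at 5.62 to 6.26.

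Against kidney, 2 members were higher in tumors (VIM and ITGA5) and 5 were lower (CDH16, CLDN10, LAMA1, ITGB8 and CLDN2), which was 4.65% and 11.6% of members beside 2% and 5.26% of all probe sets. Against liver, 3 were higher (ITGA6, VIM and ITGB5) and 2 lower (KRT8 and TJP3), 6.98% and 4.65% of members beside 3.42% and 5.86% of all probe sets. Against lymph node, 3 were higher (ITGB5, TJP1 and VIM) and 3 lower (ITGB7, ITGB2 and ITGB1BP2), 6.98% each way beside 1.33% higher and 2.91% lower of all probe sets. VIM was the 1 member higher against each of the 3 organs.

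**Figure D4:**
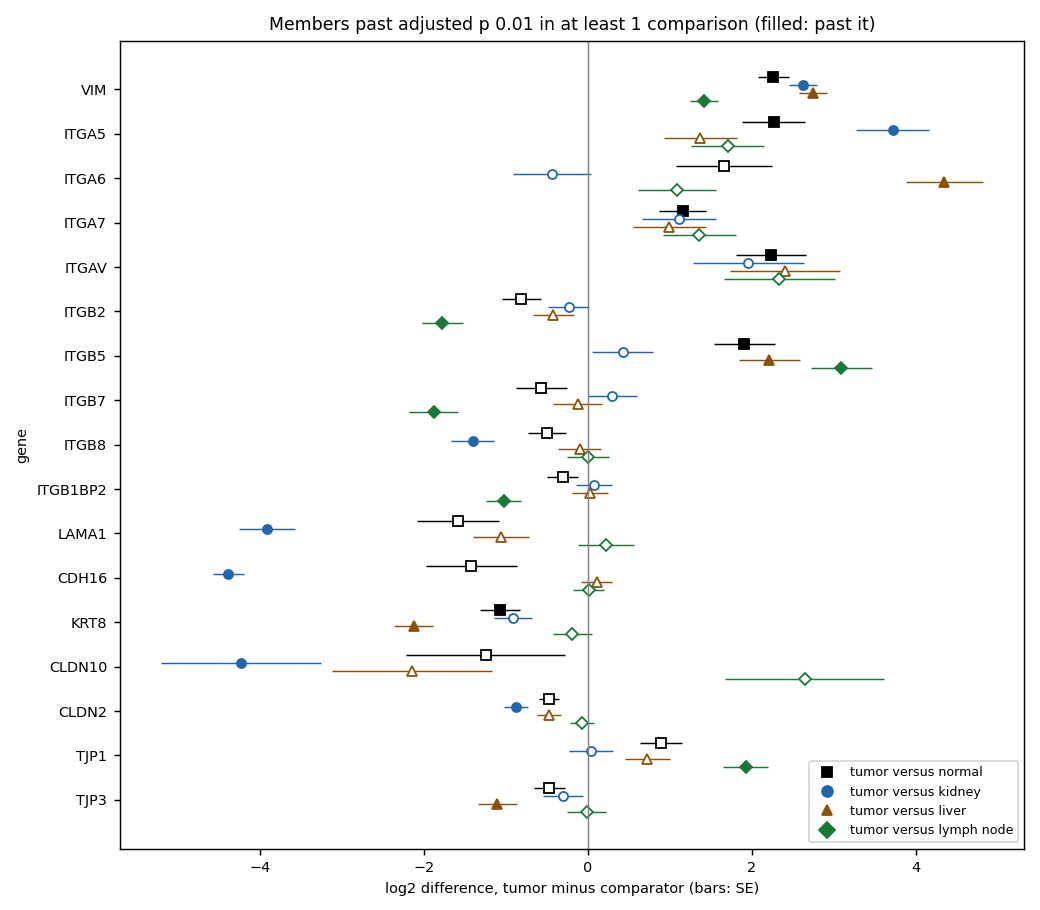
Log2 difference, tumor minus comparator (bars, SE), for the 17 members called in at least 1 of 4 comparisons with the same 15 tumors, filled where the adjusted p was under 0.01. VIM is filled in all 4 comparisons, and the largest negative values are CDH16, CLDN10 and LAMA1 against kidney.

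The classical cadherins did not separate the groups. CDH1 (probe set 1582911_at), E-cadherin of epithelial adherens junctions, was at 4.02 to 4.67 in all 23 arrays, with kidneys at 4.02 and 4.41, livers at 4.41 and 4.31, nodes at 4.19 and 4.53, cell lines at 4.16 and 4.15 and tumors at 4.07 to 4.67. CDH2, the N-cadherin of mesenchymal and neural cells, was at 4.27 to 5.35 in tumors, 4.46 and 4.45 in cell lines and 4.67 to 5.04 in normal samples. For CDH1 the tumor minus normal difference was 0.03 (SE 0.09, adjusted p = 0.896) and for CDH2 -0.01 (SE 0.11, adjusted p = 0.969). CDH1 was below the median of every array (4.73 to 4.95) even in kidney and liver, whose epithelia are known to carry it, and RMA compresses differences in that range. A second CDH1 probe set gave -0.16 (adjusted p = 0.358). CDH1 showed no relation across tumors to the mean of 3 simple epithelium markers, 1 of them EPCAM (r = 0.11, permutation p = 0.678, adjusted 0.678, and rho = -0.02, permutation p = 0.946, n = 15). EPCAM too was dim in tumors, at 3.03 to 3.99, so values this low cannot decide whether the 2 genes move together.

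CDH16 (probe set 1586688_at), the kidney-specific cadherin of tubule cells, was at 9.64 and 9.13 in kidney. Tumors were at 4.64 to 5.52 (median 5.0004), cell lines at 4.76 and 4.83, livers at 4.66 and 5.13 and nodes at 5.18 and 4.80. Only kidney stood apart, and tumors were lower than kidney by 4.38 (SE 0.19, adjusted p = 1.93e-13), 20.9-fold, with liver and node differing from tumors by 0.11 and 0.01 (SE 0.19 each). CDH18 was at 5.26 in tumor 14 and 3.49 to 4.11 in the other tumors. PCDH12, an endothelial protocadherin, was at 6.23 in tumor 1, 4.26 to 5.52 in the other tumors, 4.08 and 4.20 in cell lines and 3.90 to 5.55 in normal samples. PCDH9 was at 4.06 to 5.95 in tumors, 6.20 in kidney 2 and 4.22 to 5.39 in the other normal samples.

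Tumor 15 had the highest value of the 15 tumors in all 4 desmosomal genes. DSC2, a desmocollin, was at 4.13 to 4.64 in 14 tumors and 8.14 in tumor 15. DSG1, a desmoglein of stratified epithelium, was at 2.77 to 3.09 in 14 tumors and 6.25 in tumor 15. DSG3, the desmoglein of basal squamous cells, was at 3.77 to 4.12 in 14 tumors and 5.47 in tumor 15. In all 3 genes tumor 15 also exceeded every normal sample and both cell lines. DSP, desmoplakin, which ties desmosomes to keratin, was at 9.88 in tumor 15 and ran from 4.23 to 8.82 in the others (median 6.44). In tumor 15 the mean of 3 squamous epithelium markers (S100A2, PERP and TGM1) was 7.53, against 5.28 to 6.24 in the other tumors and 5.31 to 6.50 in normal samples. Its S100A2 was 8.81 and its PERP 7.68, while its TGM1 of 6.09 lay within the 5.49 to 6.25 of the other tumors. PERP was at 4.94 to 6.56 in the other tumors, but at 7.54 and 7.79 in kidney and 8.35 and 7.67 in liver. In JUP (6.98), ITGB4 (5.81) and LAMA3 (5.72) tumor 15 lay within the range of the other tumors. Its EPCAM of 3.64 lay within the 3.03 to 3.99 of the other tumors. The part of squamous cells in the sample was not tested.

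In normal samples DSC2 was at 4.25 and 6.45 in kidney, 4.90 and 6.54 in liver and 5.16 and 5.75 in node, and DSG1 at 4.20 and 5.59 in kidney, 3.84 and 4.63 in liver and 2.94 and 2.88 in node. DSP was at 7.51 and 8.43 in kidney, 9.15 and 8.94 in liver, 7.58 and 6.35 in node and 6.79 and 6.42 in cell lines. Apart from tumor 15, tumors were below kidney and liver in DSG1, and overlapped the normal samples in DSP. With all 15 tumors none of the 4 genes was called in any comparison (DSC2 -0.87 against normal, SE 0.45, adjusted p = 0.225, and DSP -1.51, SE 0.72, adjusted p = 0.186). Without tumor 15, a setting chosen after seeing the data, DSC2 and DSG1 were called lower against normal samples, and the lower members went from 1 to 3. DSG1 was then also lower than in kidney and in liver. Whether DSC2 and DSG1 were called thus depended on this 1 array. DSP and DSG3 were called neither with nor without it.

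**Figure D5:**
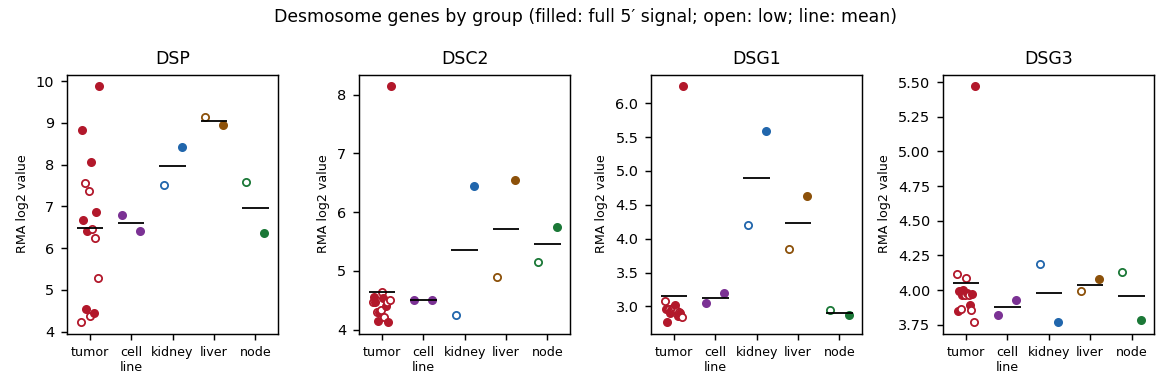
RMA log2 values of 4 desmosomal genes by group, with each point an array (filled for full 5′ signal, open for low 5′ signal) and the line the group mean. Tumor 15 lies apart from the 14 other tumors in DSC2, DSG1 and DSG3 and is the highest array in DSP.

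KRT8 (probe set 1588204_at), a keratin of simple epithelia such as hepatocytes and tubules, was at 9.40 and 8.83 in liver, 8.10 and 7.71 in kidney, 7.23 and 7.13 in node, 7.57 and 6.64 in cell lines and 6.60 to 7.68 in tumors (median 6.91). All tumors lay below liver and kidney, and 12 of 15 lay below the nodes as well. KRT8 was lower in tumors by 1.07 (SE 0.25, adjusted p = 0.00589) against the 6 normal samples and the difference from liver was -2.12 (SE 0.24, adjusted p = 8.4e-07). The differences from kidney, -0.91 (adjusted p = 0.0124), and node, -0.19 (adjusted p = 0.852), did not pass. The call against the 6 normal samples was lost in 7 of 18 alternatives, among them those without kidney 1, liver 1 or liver 2. That against liver was kept in all 16.

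Among the claudins, CLDN10 (probe set 1583659_s_at), a claudin that forms ion channels in the kidney tubule, had the widest span. It was at 11.20 and 10.97 in kidney, 8.85 and 9.15 in liver, 4.30 and 4.12 in node and 4.20 and 4.12 in cell lines. In tumors it ran from 4.24 to 8.65 (median 6.81, SD 1.54). All tumors were below the livers, and the lowest 3 (tumors 5, 8 and 11) were near the nodes. Against kidney the tumors were lower by 4.23 (SE 0.97, adjusted p = 0.00512), a call lost without either kidney sample, and against liver by 2.15 (SE 0.97, adjusted p = 0.17). The difference of 2.65 from node did not pass (adjusted p = 0.122). The other 3 CLDN10 probe sets gave -0.55 (adjusted p = 0.00519), -0.45 and -0.02 against kidney. Against node they gave -0.14, -0.09 and 0.07.

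CLDN2, a cation channel of leaky epithelia, was at 4.88 and 5.07 in kidney, 4.55 and 4.61 in liver, 4.19 and 4.16 in node and 3.70 to 4.60 in tumors (median 4.14). Kidney was above all tumors by a small margin, with tumors lower by 0.87 (SE 0.15, adjusted p = 0.000249). The call was lost without kidney 2. CLDN3, a sealing claudin, was at 5.74 to 6.54 in tumors and 7.51 in liver 2 against 5.95 in liver 1, and no difference passed with all samples (-0.71 against liver, SE 0.26, adjusted p = 0.0716). CLDN18 was at 3.59 to 4.22 in tumors and 3.77 to 4.11 in normal samples. CLDND1 followed 5′ signal as given above, and CLDND2 was at 5.17 to 6.03 in tumors.

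TJP1 (probe set 1582401_at), the ZO-1 scaffold that is found in adherens junctions of many non-epithelial cells too, was at 8.52 to 9.67 in tumors (median 9.11). Kidneys were at 9.20 and 9.03, livers at 8.53 and 8.32, nodes at 7.82 and 6.64 and cell lines at 8.99 and 8.08. Tumors overlapped kidney, 14 of 15 lay above liver, and all lay above node. TJP1 was higher than in node by 1.93 (SE 0.27, adjusted p = 6.61e-05), lost without lymph node 2, while the difference was 0.04 from kidney (SE 0.27). TJP3, the ZO-3 scaffold of epithelia, was at 3.67 to 4.33 in tumors, 5.92 in liver 2 and 4.33 in liver 1. Tumors were lower than liver by 1.10 (SE 0.24, adjusted p = 0.00251), a call lost without liver 2. OCLN, occludin, was at 3.59 to 4.59 in tumors and 3.91 to 4.61 in normal samples and was not called, but a second, dimmer OCLN probe set was called lower against kidney by 1.18 (adjusted p = 0.00162) and against liver by 1.09 (adjusted p = 0.00267).

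The cell lines, which hold no stroma, vessels or blood cells, were set against the tumors. Of the 43 members 0 were higher and 0 lower by limma, beside 3.77% and 2.5% of all probe sets. At an adjusted p under 0.05, 3 members were lower, 6.98% beside 6.46% of all probe sets. They were CLDND2 (4.74 and 5.02, -0.59, SE 0.16, adjusted p = 0.0157), ITGA7 (-1.52, SE 0.45, adjusted p = 0.0269) and ITGAM (4.75 and 4.71, -0.70, SE 0.23, adjusted p = 0.0462). Both cell lines lay below all 15 tumors in these 3 and in CLDN10 and PCDH12, so in 5 members or 11.6%, beside 9.52% of all probe sets. Both shares were near those of all probe sets. The mean of the macrophage markers was 4.72 and 4.78 in cell lines against 6.86 to 9.58 in tumors, with 6 of 12 called lower, and its part in ITGAM was not tested. The difference of -2.70 in CLDN10 (SE 0.97, adjusted p = 0.0678) did not pass. The other CLDN10 probe sets gave 0.26, 0.13 and 0.12, so the lower CLDN10 in cell lines rests on 1 probe set. For ITGB1 the pooled difference of 1.503 (SE 1.08, adjusted p = 0.378) sets cell lines of full 5′ signal against tumors of both classes, and within full signal it was 0.22 (adjusted p = 0.419). The 2 cell lines stood apart from each other in ITGA6, ITGB3, ITGB4, LAMA3 and LAMC1 (8.08 and 6.46), with no test possible between single arrays.

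Among the normal organs, 3 of 43 members differed by limma's moderated F-test, 6.98% beside 3.09% of all probe sets. They were CLDN10 (adjusted p of 0.000375), CDH16 (0.00264) and ITGA6 (0.00635), each highest in kidney. Group means of CLDN10 were 11.09, 8.9996 and 4.21 in kidney, liver and node, of CDH16 9.38, 4.89 and 4.99, and of ITGA6 9.25, 4.46 and 7.72. Over all 43 members kidney held the highest mean in 17, liver in 15 and node in 11. Leaving out any 1 organ sample removed CDH16, and any but kidney 2 removed ITGA6.

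Partners of the members were read from lists of junction, adhesion and filament genes, with 47 of 111 listed genes on the array. Counts against the 6 normal samples stand beside 3.02% higher and 2.93% lower of all probe sets, and those against single organs beside the shares given above. Of 5 adherens junction partners, EPCAM, an epithelial adhesion protein, was lower in tumors and CTNNB1, beta-catenin, higher against the 6 normal samples. EPCAM was at 3.03 to 3.99 in tumors, 11.03 and 10.96 in kidney, 9.32 and 8.50 in liver, 3.63 and 3.80 in node and 7.03 and 5.03 in cell lines. Tumors overlapped node only, and were lower by 7.52 than kidney and by 5.44 than liver (SE 0.31 each), while cell lines were 2.55 higher than tumors (SE 0.31, adjusted p = 2.7e-05). CTNNB1 was 0.88 higher in tumors (SE 0.13), at 11.07 to 11.97 against 10.34 to 10.82 in liver and node. Kidneys were at 11.32, inside the range of the tumors, and 10.89, and CTNNB1 was not called against kidney. JUP, plakoglobin of desmosomes and adherens junctions, was at 6.57 to 8.73 in tumors and 6.37 to 7.58 in normal samples and was not called.

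Of 8 other tight junction partners, 0 were higher and 3 lower in tumors than in normal samples. They were CGN, cingulin (-2.07, SE 0.39), PRKCZ, an atypical kinase of the polarity complex (-2.37, SE 0.32), and PATJ, a polarity scaffold (-1.07, SE 0.24). CGN was at 5.93 to 6.46 in tumors, 8.38 and 9.10 in kidney, 9.43 and 10.08 in liver and 6.38 and 6.18 in node. The tumors overlapped node and lay below kidney and liver, and the same 3 genes were lower against kidney and against liver and not called against node. Of 3 other desmosome partners, PERP and PKP4 were lower against kidney (-2.11 and -1.90) and PERP against liver (-2.45).

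Of 11 basement membrane genes, 4 were higher and 0 lower in tumors than in normal samples. They were the type IV collagen chains COL4A1 (2.99, SE 0.39) and COL4A2 (2.61, SE 0.33), COL15A1 (2.84, SE 0.42) and HSPG2, perlecan (1.82, SE 0.22). Against kidney only 1 of the 11 was higher, and 1 was lower. Against liver 4 were higher and 0 lower, and against node 6 were higher and 0 lower. COL4A1 was at 9.98 to 12.17 in tumors, 9.77 and 9.27 in kidney, 8.17 and 7.65 in liver, 8.52 and 6.43 in node and 9.48 and 8.39 in cell lines. All tumors lay above all normal samples and both cell lines, and COL4A1 was lower in cell lines by 2.35 (SE 0.51). Endothelium markers ran from 6.03 to 7.70 in tumors and were at 5.05 and 4.99 in cell lines, and their part was not tested. Of 11 focal adhesion adaptors 1 was higher, PARVB, beta-parvin (1.28, SE 0.21), and 0 lower. Against kidney 0 of the 11 were higher and 1 lower, and against liver and node 1 each was higher and 0 lower. TSPAN1, on the same list, was at 11.42 and 11.02 in kidney and 4.87 to 5.47 in tumors. ACTN1, alpha-actinin 1, was 2.08 higher in cell lines than in tumors (SE 0.45). This sets cell lines of full 5′ signal, at 6.72 and 6.59, against tumors of both classes. ACTN1 was at 4.47 to 6.11 in tumors of full signal and at 3.83 to 4.37 in those of low signal. Of 6 other intermediate filament genes LMNA, lamin A/C, alone was higher (3.01, SE 0.33, with tumors at 8.46 to 10.31 and normal samples at 4.83 to 7.58).

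Of 3 regulators of the epithelial and mesenchymal states on the array, ZEB1, a repressor of epithelial genes, was higher in tumors than in normal samples by 1.62 (SE 0.37, adjusted p = 0.0061). It was at 7.37 to 9.31 in tumors, 8.90 and 8.11 in cell lines, 5.78 and 6.15 in kidney, 6.61 and 6.83 in liver and 8.68 and 8.87 in node. Tumors lay above kidney and liver and on both sides of node. ESRP2, an epithelial splicing regulator, was lower in tumors than in kidney and liver (differences of -1.10 and -2.71, SE 0.20 each), and differed from node by 0.10. TCF4 was higher than in kidney by 0.97 and in liver by 1.52 (SE 0.24 each) and lower in cell lines by 1.09. For EPCAM, CGN, ZEB1 and ESRP2 the tumors were apart from kidney and liver and not from node.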

How the data were processed

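RNA of 15 tumors, 2 cell lines and 6 normal organ samples was labelled by the one-cycle protocol and hybridized to Affymetrix Canine Genome arrays, batched as a group. The authors summarized the arrays by RMA (affy), and the deposited values are log2 expression values, quantile normalized, with software versions not given in the sources used here. RMA compresses differences of dim probe sets, and precision is limited by how many arrays there are.

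From 23913 deposited probe sets 77 controls were set aside. The platform annotation gave 1 symbol for 10549 of the 23836 others, several for 138 and none for 13149, and 0 symbols needed updating. Members, lists and tests were chosen with earlier results of these data known. Named genes were, per comparison, the members past the threshold and a list of textbook members, and for partner lists up to 4 called genes each way. Other members are given by range, and members chosen after their values were seen are CDH18, PCDH12, PCDH9, ITGB6, DSG1, DSG3, LAMA3, ITGAE and ITGA2B.

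Tests were made in limma 3.58.1 (R 4.3.3, lmFit, eBayes, two-sided, Benjamini-Hochberg over 23836 probe sets, threshold 0.01), for 15 tumors against 6 normal samples as 2 groups, and for single organs and cell lines by contrasts in a model of 23 arrays in 5 groups sharing 1 spread. The study names limma without giving the model, with an adjusted p under 0.01 for tumor against normal and, in its methods, a false discovery rate under 0.05. Nothing says which organ samples share a dog, so p-values reflect only how much these samples varied. Relations used 100000 permutations (scipy), and relations planned for ITGAL, CDH5 and CDH11 were left out since those genes had no probe set with 1 symbol. Same-numbered organ samples deviated together from their organ means (r = 0.61, 0.60 and 0.53 across probe sets), where replicate 1 was in every organ the low 5′ array. The tests were checked on simulated data. Alternatives covered the threshold, centring, a filter on dim probe sets, the choice of probe set, the variance model, 5′ signal, blocks and left-out samples.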

Additional observations from a re-analysis of the deposited data

Results flagged for a closer look

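Of 43 members tested for a single sample far from the other 5 normal samples, 2 stood out. The rule assumes samples drawn from a single population, whereas these came from different organs and differed in 5′ signal. It therefore cannot say whether 2 is more or fewer than chance would give. ITGB8 was 6.34 in kidney 2, with the next normal sample at 4.38 (gap over range 0.768). TJP3 was 5.92 in liver 2, with the next at 4.45 (gap over range 0.727). Each call against that organ was lost without that sample.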

How the results depend on the processing

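Of 27 calls over the 6 comparisons, 10 were kept in every alternative run: VIM in all 4 tumor comparisons, CDH16 and LAMA1 against kidney, ITGA6 and KRT8 against liver, ITGB5 against node and CLDN10 among organs. None of the values changed sign with a call on both sides. At an adjusted p under 0.05, 9 members were higher and 4 lower against normal, 6 higher and 4 lower against liver, 5 higher against node, 3 lower in cell lines, and 11 differed among organs. The shares of all probe sets at that threshold were 5.87% higher and 6.61% lower against normal, 6.09% and 8.36% against liver, 2.32% higher against node, 6.46% lower in cell lines and 10.8% among organs. No share of all probe sets was set beside the counts of the settings below, so they show only how calls moved with processing. With a covariate for the 5′ index, 0 were lower against normal and 6 higher against liver. Within full 5′ signal 0 were lower against normal. Each class held 1 array per organ, so its counts against single organs are not given. Within low 5′ signal, 3 were higher and 0 lower against normal. With organ as a random block 3 were higher against normal. Without 5 tumors that carried the Dap spike, 3 were higher and 0 lower against normal. With dim probe sets left out, 3 were lower against kidney, and 5 higher and 1 lower against liver. CLDN2, ITGB8 and TJP3 were no longer tested, while ITGAV and LAMB1, tested in both settings, were gained against liver. With centred arrays the median of all genes for cell lines against tumors moved from -0.02 to 0.09, and ITGA7 against normal was lost.

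Leaving out 1 normal sample at a time gave 4 to 5 members higher and 0 to 3 lower against normal, 2 to 3 higher and 2 to 5 lower against kidney, 2 to 4 higher and 1 to 4 lower against liver, and 2 to 4 higher and 0 to 3 lower against node. Leaving out 1 cell line gave 0 to 0 calls. Among organs 1 to 2 members were left. Both tumor settings were chosen after seeing the data. Without tumor 5, 6 members were lower against kidney, and without tumor 15, 3 were lower against normal and 6 against kidney. With the replicate block, 4 members differed among organs, KRT8 being added, and the block changed no other call. The low 5′ signal of 10 arrays, the dimness of many members and 2 samples per organ limit these values.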
